A study of Mus musculus with 4 samples.

Results

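The genes described here encode the proteins of oxidative phosphorylation, taken by name from the arrays of 4 mouse embryonic stem cell samples. They are all probes whose target name, case ignored, begins with NDUFA, NDUFB, NDUFC, NDUFS, NDUFV, UQCR, COX4I, COX5, COX6, COX7, COX8 or ATP5, or equals SDHA, SDHB, SDHC, SDHD or CYC1. This rule took 113 of the 45281 probes, under 76 of 31490 target names, and no expression value entered it. Of the 76 genes, 70 had a detected probe and were tested among 14387 genes, and 69 of the 70 were detected in all 4 samples. By name, 31 tested genes belong to complex I, 3 to complex II, 6 to complex III, 12 to complex IV and 15 to complex V. The rule also took 3 tested genes that are no subunits of a complex: the supercomplex factor Cox7a2l, the assembly factor Ndufaf1 and Dmac2l, listed as ATP5S.

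The study compared embryonic stem cell lines established in 2i, a medium that usually holds inhibitors of MEK and of GSK3, with lines established under standard conditions. The 2i-derived group held 2i-RFP+ and 2i-RFP-, both strain C57/B6 at passage 5, each measured on 2 arrays. AFF204#21, at passage 11 and of strain C57/B6, and R1, at passage 26 and of strain 129, made up the standard-derived group, with 1 array each (titles AFF204#21-A and R1-A). All 4 samples were kept on a feeder layer of mouse embryonic fibroblasts, and none was in 2i when sampled. Passage number runs with derivation, so the effects of the 2 cannot be told apart, and R1 differs from the rest in strain as well. What RFP reports is not stated, nor whether the samples are separate cultures, and the array names of the 2i-derived samples share a stem, so both may come from the same line. The p-values therefore measure the pooled spread within the groups. Within the 2i-derived pair this spread may be technical, while between AFF204#21 and R1 it also holds differences of line, strain and passage.

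Oxidative phosphorylation takes place in the inner mitochondrial membrane. Complexes I and II pass electrons from NADH and succinate to ubiquinone, complex III passes them on to cytochrome c, and complex IV passes them to oxygen. Complexes I, III and IV pump protons as they do so, and complex V, the ATP synthase, uses the returning protons to make ATP. Most subunits are encoded in the nucleus and a few in mitochondrial DNA. Mouse embryonic stem cells in the naive state are known to use both respiration and glycolysis.

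Nuclear respiratory chain genes are known as targets of the transcription factors NRF1, GABP and YY1, so their promoters were searched for 3 motifs. RefSeq promoters of build GRCm38.p6, from 250 bases before to 50 after the gene start, matched 59 of the 70 tested genes by symbol. The motifs were GCGC, any 2 bases and GCGC for NRF1, CCGGAAG for GABP and AANATGGC for YY1. Both strands were searched for each motif on its own, so that a base could count for more than 1 motif. The NRF1 letters occurred in 17 of the 59 promoters (28.8%), against 9.61% of 17492 protein-coding genes. The GABP letters also occurred in 17 (28.8%), against 12.95% of protein-coding genes, and the YY1 letters in 16 (27.1%), against 7.46%. Over all 27025 genes with a promoter in the table the shares were 6.997%, 9.93% and 6.96%. Both backgrounds include genes not detected in these samples, while the 59 genes were all detected, and no share was taken over detected genes alone. Whether the higher shares go with the pathway or with expression was not tested. A match is a run of letters and not a known binding site.

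Promoters of 3 genes with values described later are printed to show what these letters look like. They hold the 250 bases before the start of Atp5h (chr11:115419920-115420169), Atp5k (chr5:108434400-108434649) and Ndufa1 (chrX:37191239-37191488), each on the minus strand of GRCm38.p6 and written 5′ to 3′ along the gene. Capitals mark motif letters. Atp5h holds the NRF1 letters and then the GABP letters on the opposite strand, Atp5k holds the NRF1 letters, and Ndufa1 holds none of the 3 motifs in this stretch.
Atp5h: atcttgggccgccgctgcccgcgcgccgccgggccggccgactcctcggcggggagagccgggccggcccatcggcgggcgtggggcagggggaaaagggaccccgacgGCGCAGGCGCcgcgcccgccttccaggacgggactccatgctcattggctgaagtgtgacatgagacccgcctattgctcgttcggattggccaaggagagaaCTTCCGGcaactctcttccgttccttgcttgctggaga
Atp5k: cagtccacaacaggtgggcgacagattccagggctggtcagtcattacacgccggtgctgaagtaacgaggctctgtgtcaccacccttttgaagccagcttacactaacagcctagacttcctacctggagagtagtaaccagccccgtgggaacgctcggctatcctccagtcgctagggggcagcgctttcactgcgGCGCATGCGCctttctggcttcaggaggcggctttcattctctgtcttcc
Ndufa1: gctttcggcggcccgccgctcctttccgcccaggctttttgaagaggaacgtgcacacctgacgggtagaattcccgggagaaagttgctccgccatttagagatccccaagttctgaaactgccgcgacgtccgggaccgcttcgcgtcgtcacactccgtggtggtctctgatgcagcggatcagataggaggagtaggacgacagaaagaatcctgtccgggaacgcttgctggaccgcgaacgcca

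All values are normalised log2 intensities, and a difference is the mean of the 2i-derived samples minus the mean of the standard-derived samples, given with the standard error of limma's fit. The arrays detected 19143 to 19865 probes each, at median intensities between 59.3 and 63.2. The median number of beads behind a probe was 42 or 43 per array. The 10 embryonic stem cell markers, among them Pou5f1 and Nanog, were detected in every sample. Their summed linear level was 94635 in 2i-RFP+ and 95299 in 2i-RFP-, against 93508 in AFF204#21 and 100770 in R1. The brightest of them, Dppa5a, at 15.74 to 15.87 on the log2 scale, weighs most in this sum. Single markers differed more. Zfp42 measured 9.48 and 9.67 in 2i-RFP+ and 2i-RFP-, against 9.29 in AFF204#21 and 12.83 in R1. The group difference lay above 0 for 6 of the 10. Of 10 fibroblast markers 9 were detected in every sample and Postn did not pass the filter. Their sum was 6855 in 2i-RFP+ and 5641 in 2i-RFP-, against 7252 in AFF204#21 and 9291 in R1. The brightest of them, Acta2, weighs most in this sum, with 11.83 and 11.51 in 2i-RFP+ and 2i-RFP-, against 11.98 in AFF204#21 and 12.34 in R1. Against AFF204#21 4 of the 9 markers lay above 0 in the 2i-derived mean, and against R1 1 did. Fibroblast marker signal was thus present in all 4 samples, with the lower sums in the 2i-derived pair. Its part in the values below was not tested, and in such bulk RNA fewer cells of a type and less RNA per cell cannot be told apart.

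None of the 70 genes passed limma's test at an adjusted p under 0.05, where 0.167% of all genes did (24 of 14387), 0.104% higher and 0.0626% lower in the 2i-derived samples. At an adjusted p under 0.10, 1 gene passed, Ndufa1, higher in the 2i-derived samples, as did 2.61% of all genes, while 0 of the 70 were lower at that threshold, against 1.73%. At an unadjusted p under 0.05 there were 11 (15.7%), against 20.9% of all genes. The 2i-derived samples lay above both standard-derived samples for 22 genes (31.4%), against 26% of all genes, and below both for 12 (17.1%), against 29.7%. The 12 include Cox8c, which was near background in the 2i-derived samples and passed the filter through the standard-derived samples alone. Together these are 48.6% of the 70 genes, against 55.8% of all genes. For the other 36 genes the groups overlapped. The share above both lines was thus over that of all genes and the share below both was under it, while no count at a threshold on p exceeded its background.

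The differences of the 70 genes were small. Their median was 0.06, with a range of -1.02 to 0.81 whose lower end is Cox8c, near background in the 2i-derived samples, and 46 lay above 0 (65.7%), against a median of -0.02 and 47.3% above 0 over all genes. Of the 70, 49 lay within 0.2 of 0 (70.0%), against 47.4% of all genes. Differences of 6 genes, Cox8c among them, exceeded 0.5 in size (8.57%), against 18.5% of all genes. Bright probes vary less, so the comparison was also made above a mean log2 level of 10.91, the lower quartile of the 70 genes. There 76.9% of 52 oxidative phosphorylation genes and 61.7% of all 2647 genes lay within 0.2 of 0.

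Set against each standard-derived line alone, which leaves 1 sample with no test, the genes gave different pictures. Against AFF204#21 the median difference was 0.11 and 52 genes lay above 0, where the median of all genes was -0.00. Against R1 the median was -0.00 and 34 genes lay above 0, where the median of all genes was -0.04. Both comparisons use the same 2i-derived samples. R1 minus AFF204#21 gave a median of 0.11 with 53 genes above 0 (75.7%), against 0.02 and 52.8% over all genes. The lean above 0 was thus seen against AFF204#21 and not against R1. Differences of at least 2-fold were found for 0 genes against AFF204#21 (4.34% of all genes), for 1 against R1 (7.93%) and for the same 1, Cox8c, between R1 and AFF204#21 (5.73%). Cox8c was not above background in the mean of either 2i-derived sample, so no size is read from its difference against R1. Between 2i-RFP+ and 2i-RFP- no gene reached 2-fold (0.0278% of all genes), and the largest difference in size was 0.27, for Ndufb6. The repeat arrays of 2i-RFP+ themselves read 7.47 and 6.79 for this gene.

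The root mean square difference over the 70 genes was 0.102 between 2i-RFP+ and 2i-RFP-. The repeat arrays of 2i-RFP+ differed by 0.204 and those of 2i-RFP- by 0.150, so the means of the 2 samples lay closer together than single arrays of the same sample. The distance was 0.296 and 0.283 between 2i-RFP+ or 2i-RFP- and AFF204#21, 0.325 and 0.321 between them and R1, and 0.305 between R1 and AFF204#21. The gap between R1 and AFF204#21 was thus as wide as the gaps between groups. Over all genes the same distances were 0.164 within the 2i-derived pair, 0.475 and 0.478 to AFF204#21, 0.637 and 0.645 to R1, and 0.553 between R1 and AFF204#21.

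**Figure D1:**
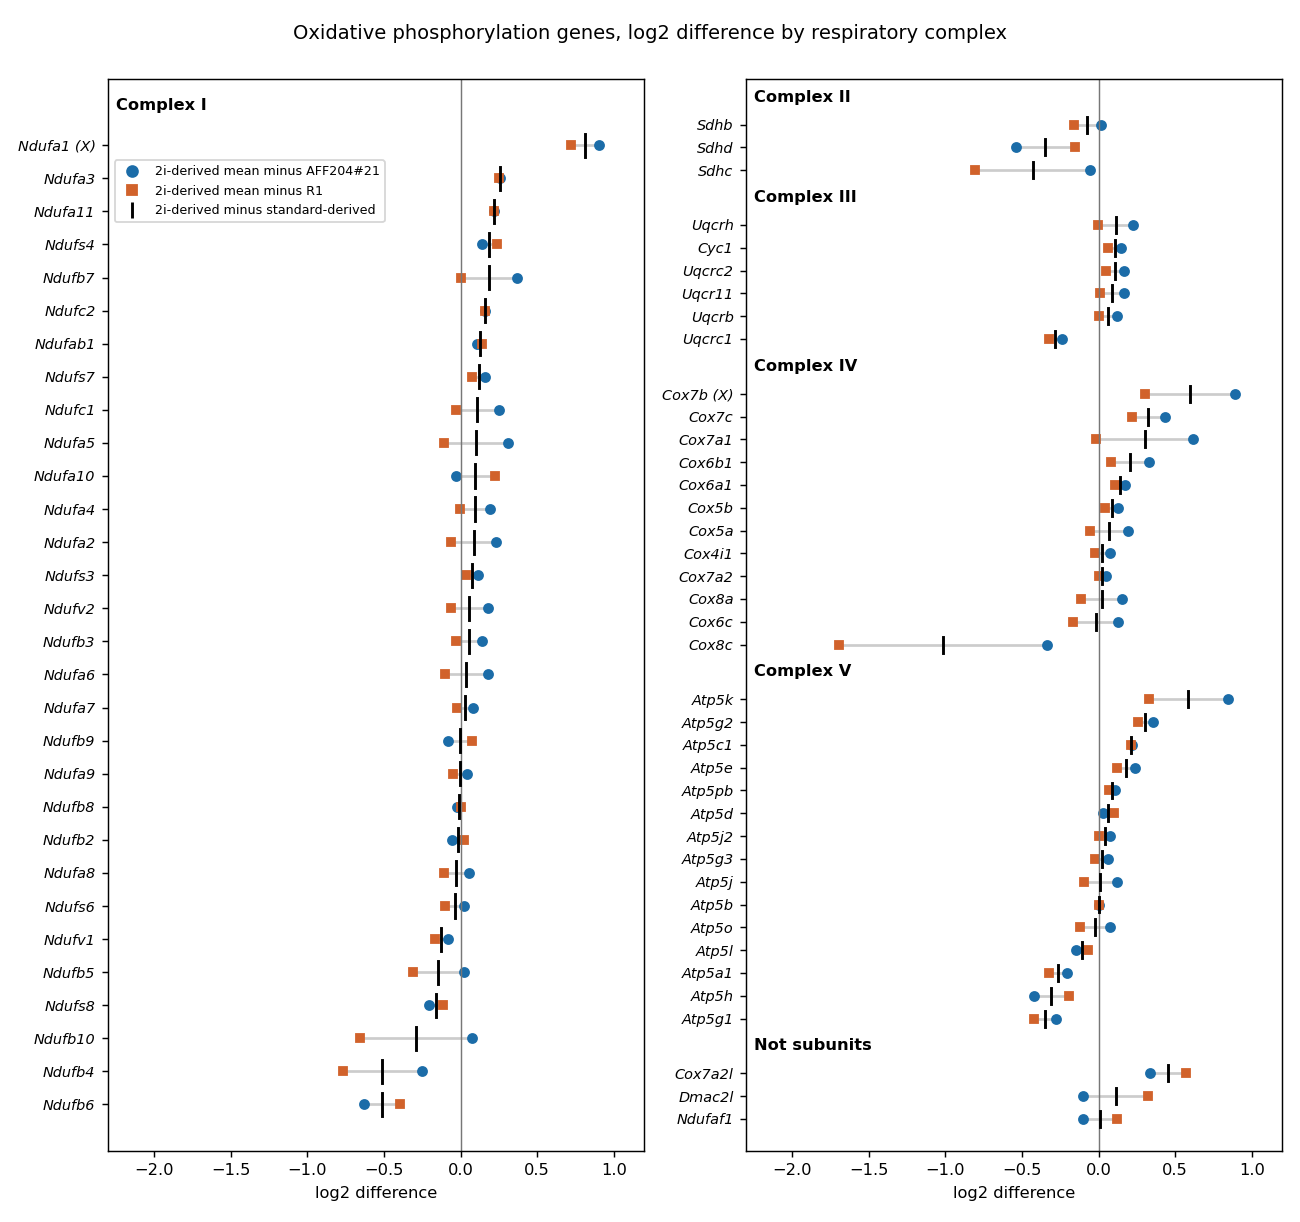
Log2 difference (horizontal axis) of 69 of the 70 tested genes, ordered within its complex. Circles are the 2i-derived mean minus AFF204#21, squares the 2i-derived mean minus R1, and black bars the difference between group means; X marks X-linked genes. Most bars lie within 0.2 of 0, and Ndufa1 and Cox7b lie furthest to the right in their complexes.

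**Figure D2:**
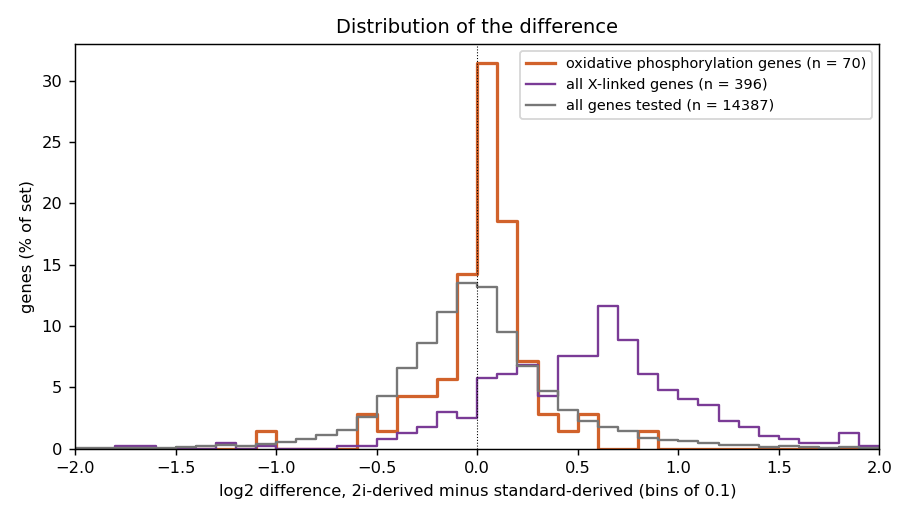
Share of genes (vertical axis, %) by log2 difference between 2i-derived and standard-derived samples (horizontal axis, bins of 0.1) for the 70 oxidative phosphorylation genes, all 396 X-linked genes and all 14387 genes tested. The oxidative phosphorylation genes crowd around their median of 0.06, and the X-linked genes lie around 0.60.

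Complex I takes electrons from NADH and is the largest complex of the chain. Of its 31 tested genes 18 lay above 0, with a median of 0.06 and a range of -0.51 to 0.81. The 2i-derived samples lay above both standard-derived samples for 8 genes (25.8%, against 26% of all genes) and below both for 4 (12.9%, against 29.7%). Ndufa1, an accessory subunit encoded on the X chromosome and needed for assembly of the complex, had the largest difference. It measured 13.24 in 2i-RFP+ and 13.27 in 2i-RFP-, against 12.35 in AFF204#21 and 12.54 in R1. The groups were far apart beside the gap within each, with a difference of 0.81 ± 0.09 (1.76-fold) and an adjusted p of 0.0641 in limma.

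Ndufa3 and Ndufa11, also accessory subunits, stood next. Ndufa3 measured 12.51 in 2i-RFP+ and 12.47 in 2i-RFP-, against 12.23 in AFF204#21 and 12.24 in R1, a difference of 0.26 ± 0.07 (limma, adjusted p = 0.163). Ndufa11 measured 11.96 and 11.87 in 2i-RFP+ and 2i-RFP-, against 11.69 in both standard-derived lines, a difference of 0.22 ± 0.08 (limma, adjusted p = 0.24). In both genes the groups were apart and the standard-derived lines were almost equal. At the other end stood Ndufb6 and Ndufb4, accessory subunits of the membrane arm. Ndufb6 measured 7.13 and 7.40 in 2i-RFP+ and 2i-RFP-, against 7.89 in AFF204#21 and 7.66 in R1, and differed by -0.51 ± 0.18 (limma, adjusted p = 0.226). Ndufb4 measured 7.36 and 7.59 in 2i-RFP+ and 2i-RFP-, against 7.73 in AFF204#21 and 8.24 in R1, and differed by -0.51 ± 0.23 (limma, adjusted p = 0.303), or by -0.24 in the deposited log2 table and by -0.25 without R1. By sample means both lay lowest in 2i-RFP+ and below both standard-derived lines in 2i-RFP- as well, without passing the test. Single arrays did not all keep this order. For Ndufb6 the arrays of 2i-RFP+ read 7.47 and 6.79, and those of 2i-RFP- 7.37 and 7.43. For Ndufb4 the arrays of 2i-RFP- read 7.46 and 7.72, the latter level with AFF204#21.

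The core subunits of complex I carry the flavin and the iron-sulphur clusters or bind ubiquinone. Of those encoded in the nucleus 5 are described here, and they lay between -0.16 and 0.12. Ndufs7, which carries the last cluster before ubiquinone, differed by 0.12, Ndufs3 by 0.08 and Ndufv2 by 0.06. Ndufv1, which binds NADH, differed by -0.125. Ndufs8 differed by -0.16, and it measured 12.05 and 11.91 in 2i-RFP+ and 2i-RFP-, against 12.18 in AFF204#21 and 12.09 in R1. Core genes thus stood on both sides of 0. Ndufs1, the largest core subunit, had 1 probe, which was detected in no sample. Ndufab1, the mitochondrial acyl carrier protein, differed by 0.12, and Ndufa4, named for complex I but since found with complex IV, by 0.10.

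Complex II, succinate dehydrogenase, also works in the TCA cycle and has no subunit in mitochondrial DNA. All 3 tested genes lay below 0. Sdhc, a membrane anchor, measured 11.54 and 11.46 in 2i-RFP+ and 2i-RFP-, against 11.55 in AFF204#21 and 12.30 in R1. R1 alone stood high, and the difference was -0.43 ± 0.26 (limma, adjusted p = 0.414), or -0.05 against AFF204#21 and -0.15 in the deposited log2 table. Sdhd, the other anchor, measured 9.60 and 9.66 in 2i-RFP+ and 2i-RFP-, against 10.17 in AFF204#21 and 9.79 in R1, and differed by -0.35 ± 0.17 (limma, adjusted p = 0.317), or by -0.16 without AFF204#21. Here AFF204#21 was the higher of the standard-derived lines. Sdhb, the iron-sulphur subunit, differed by -0.07 and its groups overlapped. Both probes of Sdha, the flavin subunit, were detected in no sample.

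Complex III was even across the samples apart from 1 gene. Uqcrh, Cyc1, Uqcrc2, Uqcr11 and Uqcrb differed by 0.06 to 0.11. Cyc1, the cytochrome c1 that hands electrons to cytochrome c, measured 12.54 and 12.44 in 2i-RFP+ and 2i-RFP-, against 12.34 in AFF204#21 and 12.43 in R1. Uqcrc1, a core protein on the matrix side, went the other way with 12.41 and 12.45 in 2i-RFP+ and 2i-RFP-, against 12.67 in AFF204#21 and 12.75 in R1. Its groups were apart, with a difference of -0.28 ± 0.07 (limma, adjusted p = 0.151). Its partner core protein Uqcrc2 differed by 0.10. Both probes of Uqcrfs1, the Rieske iron-sulphur protein, were detected in no sample.

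Complex IV, cytochrome c oxidase, had 10 of 12 genes above 0 and a median of 0.08. All 12 were higher in R1 than in AFF204#21, by a median of 0.24, and against R1 6 of the 12 lay above 0. Cox7b, an X-linked subunit, measured 9.04 and 8.87 in 2i-RFP+ and 2i-RFP-, against 8.06 in AFF204#21 and 8.65 in R1. The difference was 0.60 ± 0.24 (limma, adjusted p = 0.253), and 0.89 against AFF204#21 beside 0.31 against R1. Cox7c measured 14.45 and 14.40 in 2i-RFP+ and 2i-RFP-, against 13.99 in AFF204#21 and 14.21 in R1, with a difference of 0.33 ± 0.09 (limma, adjusted p = 0.166). The widespread subunits Cox4i1, Cox5a, Cox5b and Cox6c, each differing by less than 0.1 in size, stood close to 0.

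Some subunits of complex IV have forms limited to certain tissues. Cox7a1, the heart and skeletal muscle form, measured 10.02 and 10.09 in 2i-RFP+ and 2i-RFP-, against 9.44 in AFF204#21 and 10.07 in R1. Only AFF204#21 stood low, so the difference of 0.30 ± 0.23 (limma, adjusted p = 0.515) was 0.61 against AFF204#21 and -0.01 against R1. Its widespread counterpart Cox7a2 differed by 0.02. Cox8c, known from testis, measured 5.07 and 4.98 in 2i-RFP+ and 2i-RFP-, against 5.36 in AFF204#21 and 6.72 in R1. It was detected on 1 of 4 arrays of the 2i-derived samples and passed the filter through the standard-derived samples alone. R1 was the only sample clearly above the others. With the 2i-derived values at background, the difference between the groups is not read as a test. Its widespread counterpart Cox8a differed by 0.02. Cox4i2, the lung form, Cox6a2 and Cox8b, the heart and muscle forms, were detected in no sample.

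**Figure D3:**
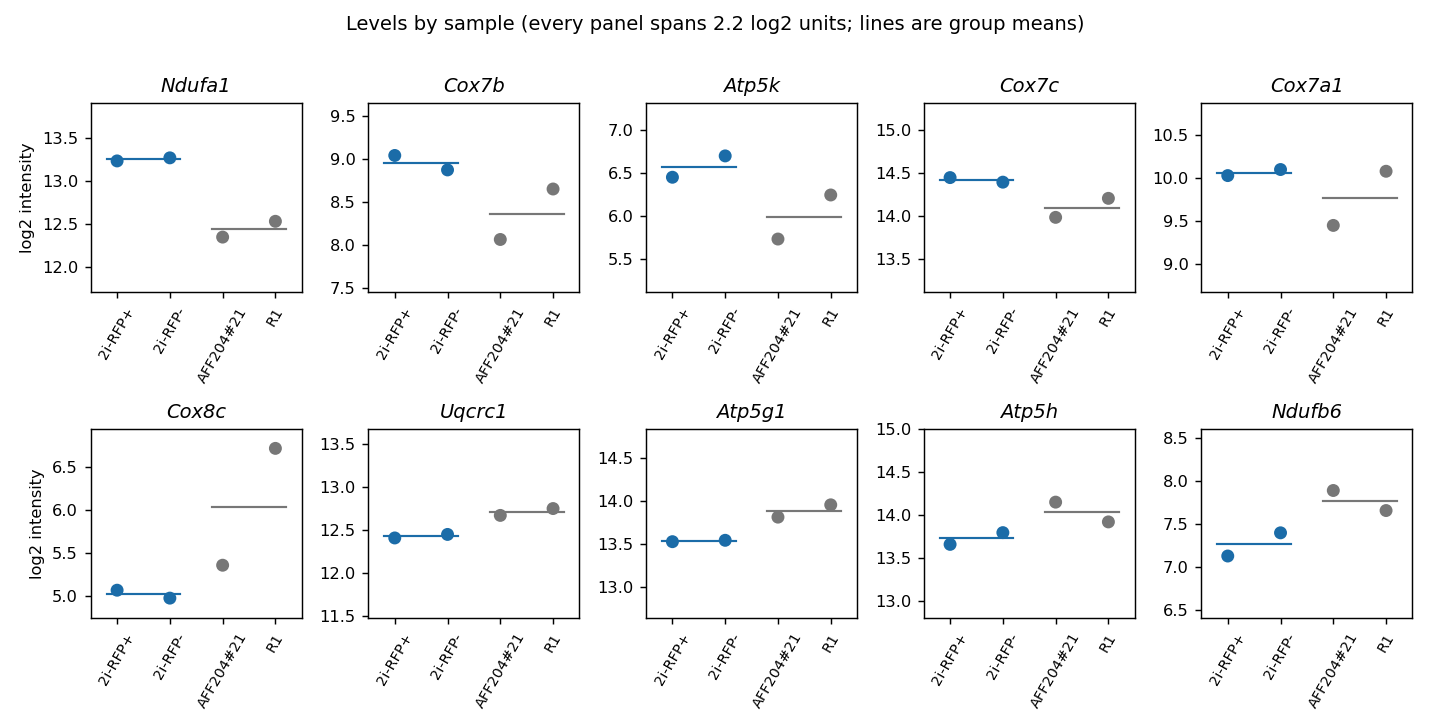
Normalised log2 intensity (vertical axis) of 10 genes in each of the 4 samples, with 1 point for each sample and a line for each group mean; every panel spans the same range of log2 units. Ndufa1 separates the groups most widely beside the gaps within them, Cox7a1 is low in AFF204#21 alone, and Cox8c is high in R1 alone.

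Complex V has a catalytic head in the matrix and a ring of c subunits in the membrane. The catalytic subunit Atp5b measured 15.78 and 15.81 in 2i-RFP+ and 2i-RFP-, against 15.79 in both standard-derived lines. Its raw intensity of 54504 to 59165 lay close to the highest of any probe on these arrays, 61282 to 63723, and 13 of 20021 detected probes were brighter, so a difference in Atp5b could go unseen. The other head genes stood on both sides, with Atp5a1 (alpha) at a difference of -0.26 ± 0.09 (limma, adjusted p = 0.218) and Atp5c1 (gamma) at 0.21 ± 0.06 (limma, adjusted p = 0.161). Atp5d (delta) differed by 0.06 and Atp5e (epsilon) by 0.18. In all, 10 of the 15 genes lay above 0, with a median of 0.02.

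The c ring is encoded by 3 genes that give the same mature protein, and these did not share a direction. Atp5g1 measured 13.53 and 13.54 in 2i-RFP+ and 2i-RFP-, against 13.81 in AFF204#21 and 13.96 in R1, a difference of -0.35 ± 0.08 (limma, adjusted p = 0.119). Atp5g2 measured 10.93 and 11.09 in 2i-RFP+ and 2i-RFP-, against 10.66 in AFF204#21 and 10.76 in R1, a difference of 0.31 ± 0.11 (limma, adjusted p = 0.224), or 0.18 on the first array of each 2i-derived sample. Atp5g3 differed by 0.02. The 2i-derived samples thus lay below both standard-derived lines for Atp5g1 and above both for Atp5g2, and neither passed the test.

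Among the other subunits of complex V, Atp5k and Atp5h stood furthest from 0. Atp5k, the e subunit, which helps synthases pair into dimers, measured 6.45 and 6.70 in 2i-RFP+ and 2i-RFP-, against 5.73 in AFF204#21 and 6.24 in R1. Its groups were apart by a small gap, and the difference was 0.59 ± 0.23 (limma, adjusted p = 0.257), or 0.14 in the deposited log2 table and 0.33 without AFF204#21. Atp5h, the d subunit of the stalk that holds the head in place, measured 13.66 and 13.80 in 2i-RFP+ and 2i-RFP-, against 14.15 in AFF204#21 and 13.92 in R1. Its difference was -0.31 ± 0.11 (limma, adjusted p = 0.212), and its second probe gave -0.24. Both genes have promoters with the NRF1 letters, printed above. Whether these letters go with the size or direction of a difference was not tested.

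Ndufa1 and Cox7b are the only tested genes of the 70 on the X chromosome, and their median difference was 0.71. All 396 X-linked genes tested had a median of 0.60, with 88.4% above 0, while 10789 autosomal genes had a median of -0.04. The 68 remaining oxidative phosphorylation genes had a median of 0.05. Against AFF204#21 the X-linked pair had a median of 0.90 and all X-linked genes 0.58. Against R1 these medians were 0.51 and 0.57. Atp5g1 and Atp5h lie on chromosome 11 and had a median of -0.33, against -0.23 over the 915 genes of that chromosome. Cox4i1 and Ndufb7 lie on chromosome 8 and had a median of 0.11, against -0.15 over its 597 genes. The number of chromosomes in each line was not tested.

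Several genes were read by more than 1 probe. Of 20 target names with at least 2 detected probes, 17 had probes whose differences agreed within 0.5, and in 9 the probes differed in sign. Among them Ndufs4, an accessory subunit of complex I, had 4 probes with differences of -0.10 to 0.19. Cox6a1, the widespread form of a complex IV subunit, had 3 with -0.10 to 0.22. Atp5pb, the b subunit of complex V, had 4 with -0.35 to 0.17. The disagreements were small next to those of Cox7a2l and Ndufb10, where 1 probe of the pair dropped in R1. Cox7a2l encodes a factor that joins complexes III and IV into supercomplexes, and the C57BL/6 strain is known to carry a shortened form of it that 129 lacks. Its brighter probe measured 12.09 and 12.12 in 2i-RFP+ and 2i-RFP-, against 11.77 in AFF204#21 and 11.54 in R1, a difference of 0.45 ± 0.11 (limma, adjusted p = 0.136). The second probe measured 12.09 and 12.02 in 2i-RFP+ and 2i-RFP-, against 11.60 in AFF204#21 and 7.18 in R1. Its raw intensity was 169.4 in R1 and 3044.5 in AFF204#21, and its normalised level was 21.5-fold lower in R1. Its difference was 2.67, with an adjusted p of 0.367 in limma's fit over all probes. Averaging the probes gave 1.56, and without R1 the probes gave 0.34 and 0.45.

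Ndufb10, an accessory subunit of complex I, showed the same form. The probe with the higher mean measured 9.78 and 9.67 in 2i-RFP+ and 2i-RFP-, against 9.65 in AFF204#21 and 10.38 in R1, a difference of -0.29 ± 0.27 (limma, adjusted p = 0.579). The other measured 10.69 and 10.58 in 2i-RFP+ and 2i-RFP-, against 10.15 in AFF204#21 and 7.31 in R1, 7.15-fold lower in R1 than in AFF204#21. Its difference was 1.91 (limma over all probes, adjusted p = 0.328), so the direction for Ndufb10 depended on the probe, while against AFF204#21 the probes gave 0.07 and 0.49. Such probes were not limited to these genes. Of the 97 detected probes 2 were at least 4-fold lower in R1 than in AFF204#21, against 0.784% of all detected probes, and a span over 2 between probes of a target in this contrast was seen for 44 of 3895 targets (1.13%). Both dim probes were still detected in R1. Whether they meet a base that differs in strain 129 was not tested, and strain and line cannot be told apart in R1.

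**Figure D4:**
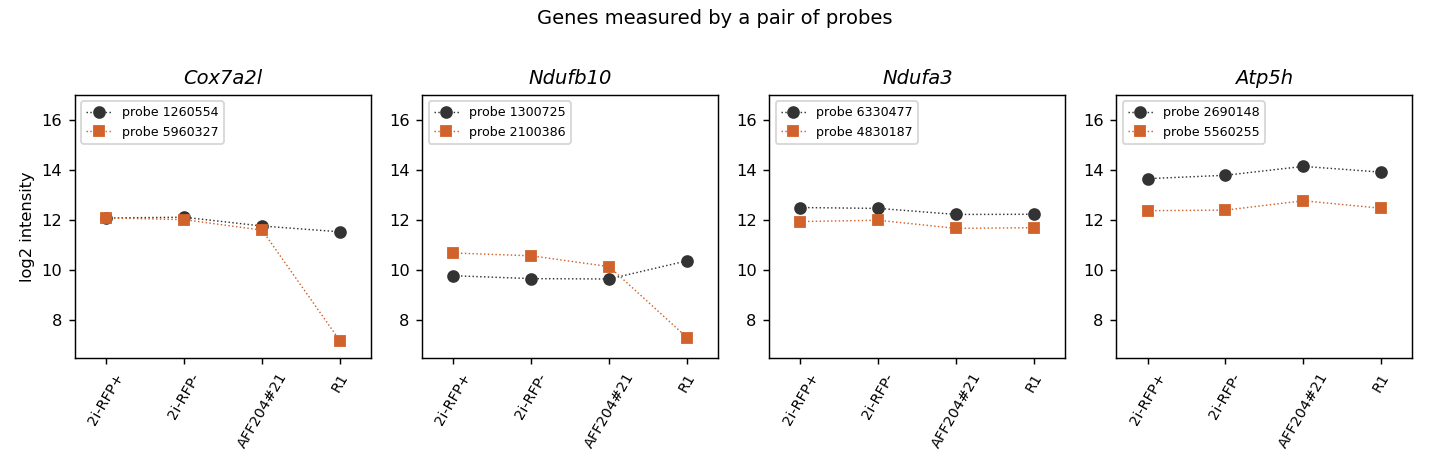
Normalised log2 intensity (vertical axis) of both probes of Cox7a2l, Ndufb10, Ndufa3 and Atp5h in the 4 samples. The probes of Ndufa3 and Atp5h run in parallel, while the second probe drops in R1 to 7.18 for Cox7a2l and to 7.31 for Ndufb10.

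A probe detected in no sample says little about its gene on these arrays. Of the 16 undetected probes, 8 belonged to genes with another, detected probe, among them Sdhc and Ndufb2. The other 8 were the probes of the 6 untested genes. These include Ndufs1, Sdha and Uqcrfs1, which the working complexes need, so their values are not read as absence.

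Some subunits carry older target names that the rule does not take, and 8 such genes, found after the files were seen, were tested. Cox6b2, the testis form of a complex IV subunit, measured 10.13 and 10.19 in 2i-RFP+ and 2i-RFP-, against 9.06 in AFF204#21 and 9.48 in R1, a difference of 0.89 ± 0.18 (limma, adjusted p = 0.106). Its widespread counterpart Cox6b1 differed by 0.21. Ndufb11, an X-linked subunit of complex I, measured 6.65 and 6.75 in 2i-RFP+ and 2i-RFP-, against 6.08 in AFF204#21 and 6.00 in R1, a difference of 0.66 ± 0.15 (limma, adjusted p = 0.121). The other 6 lay between -0.17 and 0.23, the range from Ndufa12 to Ndufv3.

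The wider pathway was read from lists of other genes, and none of them held a gene called by limma at an adjusted p under 0.05. Of the 13 subunits encoded in mitochondrial DNA 8 were on the arrays under the names searched and 7 were tested. One of these, MT-ATP6 in the file, matches the chromosome 1 locus Gm10925 as a synonym in the annotation, so its target is uncertain. All 7 lay below 0 and 5 of 7 against AFF204#21 alone, with a median of -0.11, against 46 of 70 above 0 for the genes encoded in the nucleus. MT-CYTB, the cytochrome b of complex III, measured 15.47 and 15.49 in 2i-RFP+ and 2i-RFP-, against 15.72 in AFF204#21 and 15.66 in R1, a difference of -0.21 ± 0.05 (limma, adjusted p = 0.138). The lowest was MT-ND5, of complex I, at -0.38 (limma, adjusted p = 0.291). The 2i-derived samples lay below both standard-derived lines for 5 of the 7, where the share over all genes was 29.7%.

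Assembly factors, which build the complexes but do not stay in them, had a median of -0.16 over 39 tested genes with 15 above 0. The list includes Ndufaf1. The smallest p-values were those of Tmem126b at 0.87, Coa7 at 0.58 and Coa4 at 0.51 (limma, adjusted p = 0.106, 0.129 and 0.134). Several genes below 0, such as Cox10, Cox11 and Ttc19, lie on chromosome 11, whose genes had a median of -0.23. The part of the chromosome in the list's median was not tested. The 68 tested mitochondrial ribosomal proteins had a median of -0.05 with 26 above 0. A list of electron carriers, enzymes that reduce ubiquinone and genes of ubiquinone synthesis and handling had a median of -0.02 over 17 genes. Many of the 17 belong to ubiquinone synthesis, among them Coq5, a methyltransferase, at -0.39 (limma, adjusted p = 0.11). Regulators of mitochondrial biogenesis and of mitochondrial DNA had a median of 0.06 over 14 genes, with the nuclear receptor Esrra at 0.46 (limma, adjusted p = 0.149). These medians lay within 0.2 of 0, as did that of the subunit genes.

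The 17 tested genes of pyruvate dehydrogenase and the TCA cycle had a median of -0.06, and subunits of isocitrate dehydrogenase stood at both ends. Idh3g, X-linked, measured 13.92 and 13.95 in 2i-RFP+ and 2i-RFP-, against 13.40 in AFF204#21 and 13.20 in R1, a difference of 0.64 ± 0.09 (limma, adjusted p = 0.0741). Idh2, the NADP-linked enzyme of mitochondria, differed by 0.52 ± 0.08 (limma, adjusted p = 0.0857). Idh3a, the catalytic partner of Idh3g, measured 9.91 and 9.93 in 2i-RFP+ and 2i-RFP-, against 10.85 in AFF204#21 and 10.44 in R1, a difference of -0.72 ± 0.17 (limma, adjusted p = 0.128). In glycolysis the median of 20 genes was 0.10, with the X-linked Pgk1, phosphoglycerate kinase, at 0.62 ± 0.08 (limma, adjusted p = 0.0666). A list of 7 tested genes held transporters of ADP, ATP and phosphate, porins and Atpif1, an inhibitor of the ATP synthase. Its median was 0.06, the value of Atpif1. The X-linked ADP/ATP carrier Slc25a5 stood at 0.48 ± 0.05 (limma, adjusted p = 0.0592). The autosomal carrier Slc25a4 stood at 0.47 ± 0.14 (limma, adjusted p = 0.178).

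**Figure D5:**
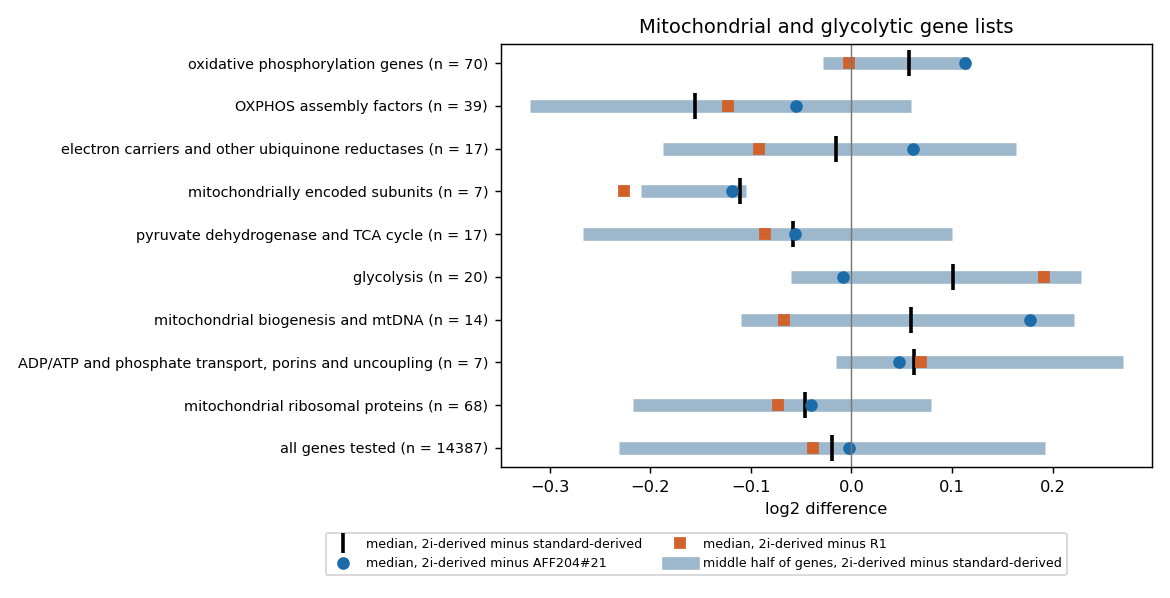
Log2 difference between 2i-derived and standard-derived samples (horizontal axis) for the oxidative phosphorylation genes, 8 lists of mitochondrial and glycolytic genes and all genes tested, with the number of tested genes beside each name. Upright bars are medians, wide bars run between the quartiles, and circles and squares are the medians against AFF204#21 and against R1; each upright bar drawn lies within 0.2 of 0.

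With a standard-derived line left out, only the 2i-derived pair gives a spread. Without R1 limma called 31 of the 70 genes, 23 of them higher in the 2i-derived samples, beside 36.6% of all genes. Without AFF204#21 it called 22, 11 of them higher, beside 45.3% of all genes. These calls set 1 standard-derived line against a pair that may be the same line, with the lone sample assumed to vary like that pair.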

How the data were processed

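Biotin-labelled copies of total RNA were read on 6 bead arrays of the type MouseWG-6 v2 (Illumina), as the labels' protocols state. The deposited intensity of a probe is linear, averaged over its beads, and was exported by the authors from GenomeStudio 1.0.6 without normalization, per the file headers. Detection is deposited as a score from 0 to 1, and 1 minus this score served as the detection p. The deposited bead counts and standard deviations of bead intensity were used to describe precision, and bead standard errors were computed from them. A deposited table of log2 values, 1 row per target name, served as an alternative, with a method not given in the sources used here.

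Intensities were background corrected and quantile normalized by limma 3.58.1 in R 4.3.3 (function neqc, offset 16), and arrays of a sample were averaged. Probes with a detection p under 0.05 in at least 2 of 4 samples were kept. Each gene was read from its kept probe with the highest mean log2 value over the samples. Names, chromosomes and promoters come from RefSeq tables of GRCm38.p6. Of 31490 target names 13430 matched a symbol, 6754 matched a synonym, 11281 stayed as in the file and 25 that a spreadsheet had turned into dates or numbers were left out. The groups were compared with lmFit and eBayes (intensity trend, two-sided, Benjamini-Hochberg over 14387 genes). The same fit was also run on simulated data whose means and spread were taken from these samples. Named are the 3 highest and 3 lowest genes of each complex, X-linked genes, genes with an adjusted p under 0.10, tissue forms with their counterparts, genes whose probes disagree, the 3 largest differences within each group, and up to 3 genes of each other list by smallest p. Other genes are named for their role, and 1 tested gene is counted but not reported by itself here. The alternatives changed the background correction, normalization, filter, choice of probe, variance model and samples. The genes and lists were chosen with earlier results of these data known. The number of arrays limits the precision. The bead standard error of a log2 intensity, which covers only the beads within a single array, had a median of 0.0446 and reached 0.203. Repeat arrays of 2i-RFP+ differed by a root mean square of 0.204 over the tested oxidative phosphorylation genes, and those of 2i-RFP- by 0.150.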

Additional observations from a re-analysis of the deposited data

How the results depend on the processing

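No paired analysis was possible because the labels carry no replicate numbers shared between the groups. The median difference of the oxidative phosphorylation genes was 0.06 and ranged from 0.04 to 0.08 over the 10 alternatives that keep all samples, and from -0.00 to 0.11 when 1 sample was left out. For the X-linked pair it was 0.71, with 0.62 to 0.72 and 0.51 to 0.90. Of the 70 genes limma called 0 under each of the 10 alternatives, and 0 to 31 when 1 sample was left out. Over all genes it called 24. It called 0 with no background correction (2997 at an unadjusted p under 0.05), with median scaling (2944), with a robust trend (2997) and with both 2i-derived samples counted as 1 (796). It called 12 with the deposited log2 table, 1 among genes detected in all 4 samples, 48 with each probe by itself, and 0 to 6512 when 1 sample was left out. Median scaling turned Cox6c to 0.0033 and Ndufb8 to 0.0232. The deposited table turned Ndufb10 to 0.75, Ndufa5 to -0.0699, Ndufb8 to 0.0787 and Atp5o to 0.05. Averaging the probes turned the same 4 genes, to 0.81, -0.0862, 0.0907 and 0.0512. The first array of each 2i-derived sample turned Cox7a2 to -0.0317. Leaving out 1 sample gave differences on both sides of 0 for 11 of the genes named: Atp5o -0.12 to 0.072, Cox4i1 -0.036 to 0.0859, Cox6c -0.17 to 0.13, Cox7a1 -0.015 to 0.61, Cox8a -0.11 to 0.15, Ndufa4 -0.0022 to 0.19, Ndufa5 -0.11 to 0.31, Ndufb10 -0.66 to 0.0738, Ndufb8 -0.0213 to 0.0003, Sdhb -0.16 to 0.0137 and Uqcrh -0.0023 to 0.22. The deposited table gave 1.49 for Cox7a2l, 0.14 for Atp5k, -0.24 for Ndufb4 and -0.15 for Sdhc. The first arrays gave -0.53 for Sdhd and 0.18 for Atp5g2. Leaving out 1 sample gave 0.33 to 0.84 for Atp5k, -0.77 to -0.25 for Ndufb4, -0.81 to -0.05 for Sdhc, -0.54 to -0.16 for Sdhd and 0.31 to 0.89 for Cox7b. Where probes of a gene disagree, averaging follows both by construction; the cause of the other moves was not tested. Genes near background, such as Cox8c, Atp5k and Ndufb4, are limited by their signal.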
